A study of Homo sapiens with 38 samples.

Results

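NB1691 is an established human neuroblastoma cell line, and palbociclib is an inhibitor of the cyclin-dependent kinases CDK4 and CDK6. The comparison described here set 2 NB1691 libraries labelled as palbociclib-treated against 2 labelled as NB1691 without treatment, that is 4 of the 38 samples of the series, and it covered all 22133 genes that passed a filter on low counts. Libraries were assigned by their cell line and treatment labels. The treated cells had received 3 µM palbociclib for 72 h, and all 4 cultures are given as grown in DMEM with L-glutamine and fetal bovine serum. The study's methods instead name RPMI medium for NB-1691. The labels name no vehicle for the control, carry no time for it and do not say whether replicates were separate cultures. The p-values therefore measure only the spread between libraries, estimated jointly over the 16 libraries of the 4 lines given palbociclib. An effect of a vehicle or of time in culture cannot be told apart from that of the drug. The study compared the transcriptome of a CDK4/6 inhibitor with those of KDM6B knockdown and of a KDM6 demethylase inhibitor. It treated 3 further neuroblastoma lines with palbociclib, each with 2 treated and 2 untreated libraries. NB1643 had the same dose and time, and CHLA15 and CHLA20 had 300 nM for 72 h.

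CDK4 and CDK6, bound to D-type cyclins, phosphorylate the retinoblastoma protein RB and its relatives in the G1 phase of the cell cycle. Phosphorylated RB releases the E2F transcription factors, which switch on genes for DNA replication and for the entry into S phase. Genes for mitosis come later, largely through the MuvB complex with MYBL2 and FOXM1, which is repressive (the DREAM complex) while RB family proteins are unphosphorylated. In neuroblastoma, a tumor of the sympathetic lineage, the cell state is set by adrenergic transcription factors such as HAND2 and GATA3 or by a mesenchymal program.

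The 4 NB1691 libraries held 64494840 to 93011010 counts on genes. Replicates differed by more than sampling noise (chi-square per degree of freedom 2.77 in control and 4.7 in palbociclib), so each library was kept as a sample. The same value was 24.3 in NB1643 control and 3.75 in NB1643 palbociclib, and 2.22 to 19.2 in the groups of the CHLA lines. All levels below are CPM, counts scaled to a common depth on TMM-normalised library sizes, and 3 counts corresponded to 0.0397 to 0.0602 CPM. Among the 8 adrenergic neuroblastoma markers, 7 were at 1 CPM or more in every NB1691 library, but at lower levels than in the other lines for most of them: HAND2, a transcription factor of sympathetic neurons, was at 90.5 and 97.5 CPM in control, against means of 876, 429 and 402 CPM in the controls of NB1643, CHLA15 and CHLA20, and TH, tyrosine hydroxylase, at 0.752 and 0.688 CPM against 15.5, 206 and 178 CPM. MYCN was at 86.1 and 86.5 CPM in NB1691 control. Its control means were 3175 CPM in NB1643, 2.29 CPM in CHLA15 and 3.14 CPM in CHLA20, so NB1691 lay between them. The defining markers of Schwann cells (SOX10) and of leukocytes (PTPRC) were at or near 0, with a highest value of 0.544 CPM. Of the 10 fibroblast and vessel markers, 8 were at 1 CPM or more in every library, and their summed level was 16800 and 16500 CPM in control and 21300 and 22200 CPM in palbociclib, most of it COL1A1, a collagen chain, and LUM, lumican. In control 1 the 10 markers ranged from 0.16 CPM (CDH5) to 14800 CPM (COL1A1), with COL1A2 at 1.76, DCN at 2.13 and PDGFRB at 117 CPM. The part of these markers in the results was not tested. FN1, fibronectin, alone took 5.02% to 6.06% of the counts in the 4 libraries.

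One treated library stood apart in a small set of genes. Palbociclib 1 held 17 genes with at least 10 counts that had at most 2 counts in each of the other NB1691 libraries, against 1 such gene in palbociclib 2, 5 in control 1 and 6 in control 2. They included HBB (224 counts), CA1 (80), ALAS2 (17), CA2 (15), KLF1 (15), RHAG (14) and HBA2 (11), genes of red blood cells, and ZIC2 (28), ZIC5 (14) and GRIN1 (31), genes of neural cells. HBB also had 980 counts in NB1643 control 1 and 61 in NB1643 palbociclib 1. The part of these reads in the results was not tested, and the counts of calls, the named genes and the list counts were recomputed without palbociclib 1.

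Under palbociclib the cell cycle genes of NB1691 fell furthest, and most genes of neurons, secretory granules and lysosomes rose by smaller steps. These are bulk libraries, in which fewer cells in cycle and less RNA per cell cannot be told apart. Of 22133 genes tested, 3847 (17.4%) rose and 3422 (15.5%) fell at an adjusted p under 0.05, together 7269 genes or 32.8%, in edgeR's quasi-likelihood test with Benjamini-Hochberg adjustment. Counts of gene lists below are to be read against these shares. Both treated libraries lay above both controls in 37.2% of genes and below both in 33.2%. Without palbociclib 1 or control 1 the rises numbered 2515 and 2552, and without control 2 the falls numbered 2235. Over all genes the log2 fold change had a median of 0.02. With TMM 52.9% of the called genes were higher, with library totals 35.9% and with upper-quartile factors 61.9%, so the balance of rises and falls depended on the scaling. Most called changes were small: 1744 rises and 1289 falls exceeded 0.5 on the log2 scale, 594 and 556 exceeded 1, and 121 and 186 exceeded 2. The largest falls were mostly of the cell cycle. Of the 50 largest falls among genes at 1 CPM or more, 35 were on the lists of cell cycle, replication, repair and histone genes used here, which hold 1.21% of all genes tested, and 0 of the 50 largest rises were.

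**Figure D1:**
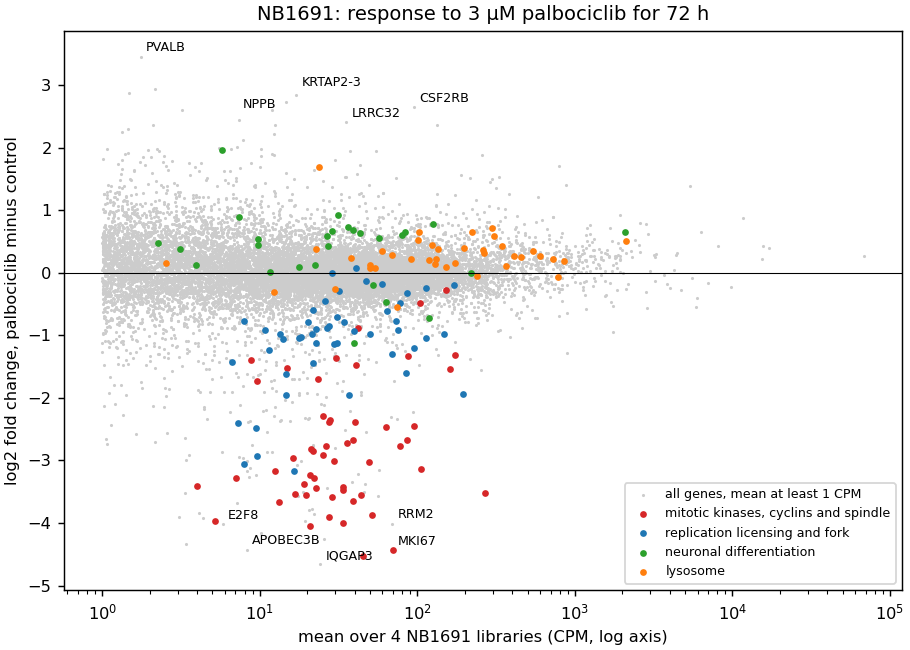
Each point is a gene with a mean of at least 1 CPM over the 4 NB1691 libraries, at that mean (horizontal log axis, CPM) and at its log2 fold change, palbociclib minus control (vertical axis). The 53 mitotic genes (red) lie below 0, the replication genes (blue) between -3.17 and 0.07, and the neuronal (green) and lysosomal (orange) genes mostly above 0.

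The 10 largest falls among genes at 1 CPM or more were IQGAP3, KIF20A, MKI67, APOBEC3B, the long noncoding RNA RP11-301G19.1, DLGAP5, FAM111B, HMMR, E2F8 and RRM2. IQGAP3, a scaffold protein of the cortex of dividing cells (chr1:156495197-156542396, GRCh37), had 48.0 and 44.7 CPM in control and 2.01 and 1.63 CPM in palbociclib libraries (log2 fold change -4.66, SE 0.107, adjusted p = 1.81e-16). KIF20A, a kinesin of cytokinesis (chr5:137514408-137523412), had 87.2 and 86.1 CPM in control and 4.13 and 3.35 CPM in palbociclib libraries (log2 fold change -4.52, SE 0.0843, adjusted p = 4.45e-17). The groups of these 10 genes could not overlap, because the rule for naming them required both treated libraries below both controls. MKI67, the gene of the proliferation antigen Ki-67 (chr10:129894923-129924687), had 130.5 and 136 CPM in control and 7.20 and 5.0 CPM in palbociclib libraries (log2 fold change -4.43, SE 0.162, adjusted p = 1.31e-13). RRM2, the regulated subunit of ribonucleotide reductase (chr2:10260825-10351851), had 129 and 131 CPM in control and 8.71 and 7.31 CPM in palbociclib libraries (log2 fold change -4.01, SE 0.0800, adjusted p = 4.45e-17). DLGAP5 and HMMR, which act on the mitotic spindle, fell from 47.8 and 49.7 to 3.02 and 2.01 CPM and from 39.3 and 39.2 to 2.55 and 2.19 CPM. FAM111B, a gene of S phase cells that encodes a protease, fell from 19.2 and 19.5 to 1.06 and 1.10 CPM (log2 fold change -4.16), and RP11-301G19.1 from 6.05 and 6.84 to 0.298 and 0.341 CPM (-4.33).

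APOBEC3B, a cytidine deaminase that edits DNA (chr22:39378352-39388809), fell in NB1691. It was not called in any of the other lines, where its control means were already under 1 CPM. In NB1691 it had 16.4 and 15.2 CPM in control and 0.895 and 0.542 CPM in palbociclib libraries (log2 fold change -4.43, SE 0.194, adjusted p = 1.91e-12). In NB1643, where it was low, it was at 0.246 and 0.0959 CPM in control and 0.215 and 0.143 CPM in palbociclib, and the difference of the responses was -4.44 on the log2 scale (adjusted p = 1.25e-05). The gene has close paralogs, and reads shared with them may have been lost or split in the counting.

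In the CDK4/6-RB-E2F axis itself, E2F1, E2F2, E2F7 and E2F8 fell most among the E2F genes, while CDK6 and CCND1 rose and CDK4 was not called. Of the 23 axis genes tested, 4 rose, 12 fell and 7 were not called, with a median log2 fold change of -0.16. CDK4, the kinase targeted by palbociclib (chr12:58141510-58149796), had 5676 and 5817 CPM in control and 5488 and 5310 CPM in palbociclib libraries, and was not called (log2 fold change -0.09, SE 0.0583, adjusted p = 0.264, 95% interval -0.212 to 0.0326). It was called lower with library totals (-0.17) and with only the compared groups in the fit (-0.10). CDK6, the second target, rose from 213 and 233 to 338 and 349 CPM (log2 fold change 0.62, SE 0.0799, adjusted p = 6.75e-06). CCND1, the D-type cyclin that activates both kinases (chr11:69455924-69469242), rose from 506 and 516 to 945 and 947 CPM (log2 fold change 0.89, SE 0.0497, adjusted p = 8.63e-11). CCND1 rose in each of the other lines too, by 0.80 in NB1643, 1.01 in CHLA15 and 0.93 in CHLA20. CCND2 rose at a level under 1 CPM (1.5), and CCND3 had a log2 fold change of -0.07 that was not called.

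The activating factors E2F1 and E2F2 fell, and so did the atypical repressors E2F7 and E2F8. E2F1 (chr20:32263283-32274191) had 46.2 and 46.7 CPM in control and 17.7 and 17.4 CPM in palbociclib libraries (log2 fold change -1.40, SE 0.0653, adjusted p = 5.15e-12). E2F2 fell from 12.8 and 13.5 to 1.91 and 1.45 CPM (-2.95), E2F7 from 20.9 and 20.2 to 3.95 and 4.498 CPM (-2.29) and E2F8 from 10.8 and 11.1 to 0.713 and 0.623 CPM (-4.02). E2F3 (-0.08) and E2F5 (-0.12) were not called, and the repressive factors E2F4 (-0.16) and E2F6 (-0.21) fell slightly. When any 1 of the libraries was left out, E2F4 missed the threshold (adjusted p from 0.102 to 0.126). Without control 1, control 2 or palbociclib 1, E2F6 missed the threshold (adjusted p from 0.0549 to 0.0848). Without control 2, CCND2 missed the threshold (adjusted p = 0.0928). Among the pocket proteins, RB1 fell by 0.39 on the log2 scale and RBL1, itself an E2F target, from 30.9 and 30.9 to 14.1 and 14.9 CPM (-1.09), whereas RBL2 had 0.04 and was not called. Of the dimerization partners, TFDP2 rose (0.35) and TFDP1 was not called (-0.13). CCNE2, an E-type cyclin, fell from 10.4 and 9.88 to 1.46 and 1.30 CPM (log2 fold change -2.87, SE 0.123, adjusted p = 1.54e-12), while CCNE1 had 10.3 and 9.63 CPM in control and 11.4 and 10.5 CPM in palbociclib libraries and was not called (0.14). The partner kinase CDK2 (-0.74), the ubiquitin ligase subunit SKP2 (-0.79) and FBXO5, an inhibitor of the anaphase-promoting complex (-1.39), all fell.

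**Figure D2:**
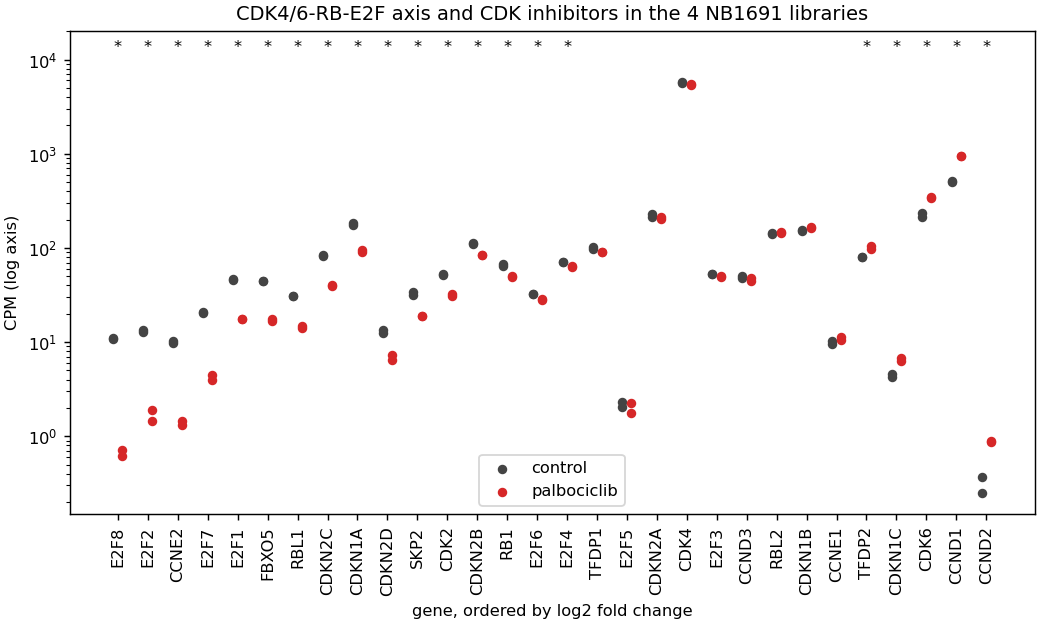
CPM (log axis) of the 23 axis genes and 7 CDK inhibitor genes in the 2 control (dark) and 2 palbociclib (red) NB1691 libraries, ordered by log2 fold change, with a star over each gene at an adjusted p under 0.05. E2F8, E2F2 and CCNE2 are higher in control than in palbociclib, where they are at 1.91 CPM or lower. CDK4 lies between 5310 and 5817 CPM in the 4 libraries, and CCND1 is higher in both treated libraries.

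Genes for DNA replication fell almost as a whole. Of the 49 licensing and fork genes tested, 0 rose, 46 fell and 3 were not called, with a median log2 fold change of -0.98. The 3 that were not called were ORC3, ORC4 and ORC5, subunits of the origin recognition complex. CDC45, a subunit of the replicative helicase, fell from 29.3 and 29.8 to 3.91 and 2.55 CPM (log2 fold change -3.17, SE 0.123, adjusted p = 3.48e-13). CLSPN, which links forks to the checkpoint kinase, and MCM10, an initiation factor, fell by 3.06 and 2.92 on the log2 scale. Of the 11 nucleotide supply genes tested, 0 rose, 9 fell and 2 were not called, with a median log2 fold change of -0.71. Beside RRM2, thymidine kinase TK1 fell from 69.4 and 70.8 to 7.63 and 6.06 CPM (-3.35) and thymidylate synthase TYMS from 99.8 and 105 to 12.4 and 10.7 CPM (-3.15). Of the 33 homologous recombination and Fanconi anemia genes tested, 0 rose, 27 fell and 6 were not called, with a median log2 fold change of -0.83, led by RAD54L (-2.76), BARD1 (-2.22) and RAD51AP1 (-2.06). The Seurat S phase list, a set used to score single cells, had 41 of 43 genes lower and 0 higher (median -1.38). Leaving out 1 NB1691 library at a time left 44 to 46 licensing and fork genes and 25 to 27 recombination genes called lower.

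Genes for mitosis fell further. All 53 mitotic kinase, cyclin, kinesin and spindle genes tested fell, with a median log2 fold change of -2.96 and a range from -4.52 to -0.27, and the 53 calls held without any 1 of the NB1691 libraries. The Seurat G2/M list had 51 of 52 genes lower and 0 higher (median -2.70). Of the 8 DREAM and MuvB core genes tested, 0 rose, 6 fell and 2 were not called, with a median log2 fold change of -0.30. The members that fell most were the activators MYBL2, from 102 and 106 to 9.30 and 8.23 CPM (log2 fold change -3.57, SE 0.0775, adjusted p = 1.34e-16), and FOXM1, from 83.5 and 86.2 to 8.64 and 7.71 CPM (log2 fold change -3.37, SE 0.0647, adjusted p = 4.45e-17), and LIN9, a constant subunit of MuvB, fell with a log2 fold change of -0.35. The number lower was 3 without palbociclib 2. Without control 2 or palbociclib 2, LIN9 missed the threshold (adjusted p from 0.0707 to 0.0735).

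E2F factors and the MuvB complex are known to bind short promoter motifs, and the windows here show matches to them in genes of both groups that fell. They were picked for their matches: the promoters of KIF20A, RRM2, E2F7, MYBL2, TK1 and CDKN2C, which also fell, held neither motif, and those of E2F3 and TFDP1, which were not called, held an E2F core. Sequences are from RefSeq on GRCh38.p14, 60 bases each, 5′ to 3′ on the gene's strand and upstream of the start site. Capitals mark the E2F core (TTTCGCG or its variants TTTGGCG and TTTCCCG and also TTTGCCG, on either strand) or the cell cycle homology region, CHR (TTTGAA on either strand). Overlapping matches run together. The windows are E2F1 at chr20:33686386-33686445, minus strand, E2F2 at chr1:23531243-23531302, minus strand, RBL1 at chr20:37095998-37096057, minus strand and CDC45 at chr22:19479860-19479919, plus strand for genes of S phase entry, and MKI67 at chr10:128126444-128126503, minus strand, DLGAP5 at chr14:55191664-55191723, minus strand and HMMR at chr5:163460572-163460631, plus strand for genes of mitosis.
E2F1: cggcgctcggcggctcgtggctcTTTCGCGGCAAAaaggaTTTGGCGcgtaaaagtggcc
E2F2: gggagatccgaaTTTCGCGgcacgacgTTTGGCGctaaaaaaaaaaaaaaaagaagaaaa
RBL1: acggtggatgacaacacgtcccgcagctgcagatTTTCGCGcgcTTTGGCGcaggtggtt
CDC45: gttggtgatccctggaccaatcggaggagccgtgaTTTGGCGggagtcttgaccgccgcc
MKI67: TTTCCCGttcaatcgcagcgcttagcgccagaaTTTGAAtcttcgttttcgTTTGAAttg
DLGAP5: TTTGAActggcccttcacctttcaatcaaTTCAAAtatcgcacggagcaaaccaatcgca
HMMR: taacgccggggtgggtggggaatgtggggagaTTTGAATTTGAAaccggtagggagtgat

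Read across sets, the E2F core was most frequent in promoters of replication genes and the CHR in promoters of mitotic genes. The search covered 250 bases before to 50 bases after each start. An E2F core was found in 52.4% of the 42 licensing and fork promoters, 14.9% of the 47 mitotic promoters and 12.1% of the 12623 promoters of genes tested. The CHR was found in 2.38%, 70.2% and 10.3% of the same sets. Over all 27305 promoters of the table the shares were 8.69% and 15.4%. Among genes called lower, 17.1% held an E2F core and 13.2% a CHR, and among those that fell by more than 2 on the log2 scale 24.4% and 43.7%. Genes called higher had 10.2% and 8.21%. The rises above 2 on the log2 scale (51 promoters) had 3.92% and 23.5%, and those above 1 5.03% and 14.8%, so a larger share of the strongest rises than of all genes tested held a CHR. Of the 22133 genes tested 12623 had a promoter in the table, 119 of 186 among the largest falls. These are matches of letters, given as a description, and not measured binding.

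**Figure D3:**
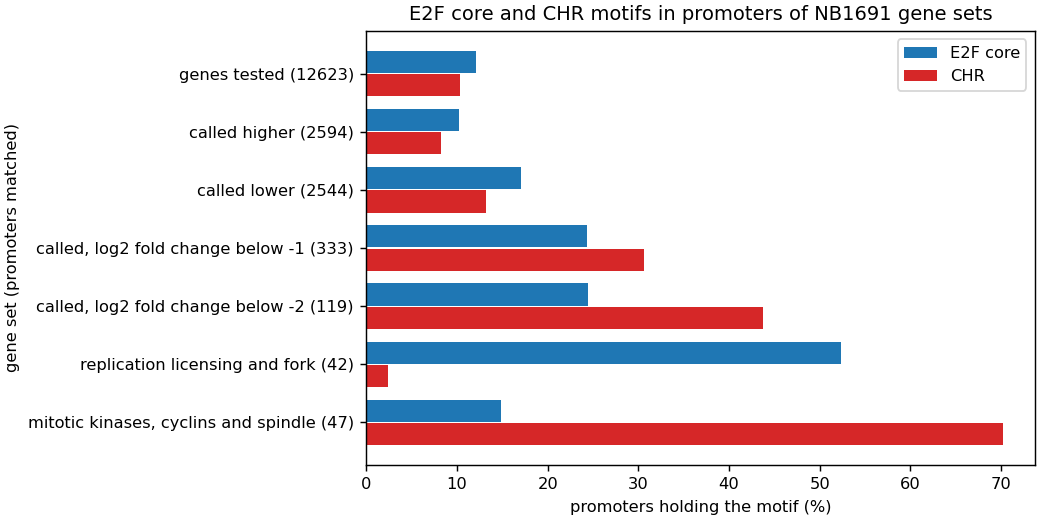
Bars show the percentage of promoters (250 bases before to 50 after the start, number matched in brackets) that hold an E2F core (blue) or a CHR (red) match on either strand. The E2F bar is longest for licensing and fork genes (52.4%) and the CHR bar for mitotic genes (70.2%).

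The CDK inhibitor genes did not rise as a group. Of the 7 CDK inhibitor genes tested, 1 rose, 4 fell and 2 were not called, with a median log2 fold change of -0.43. CDKN1A, which encodes p21 and is a target of p53, fell from 176 and 183 to 94.9 and 91.2 CPM (log2 fold change -0.95, SE 0.0561, adjusted p = 2.03e-10). CDKN2C, an INK4 inhibitor of CDK4 and CDK6 and an E2F target, fell from 83.0 and 84.6 to 40.0 and 39.6 CPM (-1.07), and CDKN2D (-0.93) and CDKN2B (-0.43) fell as well. CDKN1C rose from 4.62 and 4.28 to 6.72 and 6.30 CPM (0.55). CDKN2A, the gene of p16 and ARF, had 215 and 227 CPM in control and 211 and 201 CPM in palbociclib libraries and was not called (-0.10), nor was CDKN1B, the gene of p27 (0.11).

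Targets of p53 fell more often than they rose. Of the 30 p53 target genes tested, 3 rose, 17 fell and 10 were not called, with a median log2 fold change of -0.32. The death receptor gene FAS fell from 22.3 and 22.3 to 9.02 and 10.1 CPM (log2 fold change -1.22, SE 0.106, adjusted p = 4.55e-08) and the damage recognition gene DDB2 from 29.5 and 29.6 to 14.97 and 15.2 CPM (-0.97). The rises were TP53INP1 (0.39), GADD45A (0.32) and SESN2 (0.28), the last of these a stress response gene as well. Without control 1, control 2 or palbociclib 1, SESN2 missed the threshold (adjusted p from 0.0507 to 0.159). In the BCL2 family, of 16 genes tested 3 rose and 3 fell. BCL2, which opposes apoptosis, rose from 12.7 and 13.5 to 27.1 and 26.1 CPM (log2 fold change 1.02, SE 0.0708, adjusted p = 2.05e-09), and BOK rose by 0.26. The pro-apoptotic PMAIP1 (-0.72), BAX (-0.55) and BMF (-0.31) fell. Without any 1 of the 4 libraries, BOK missed the threshold (adjusted p from 0.0868 to 0.155).

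CDK4 stood among a set of genes on a stretch of chromosome 12 that were far higher in NB1691 than in the other lines. With a control mean of at least 10 CPM and at least 10 times that of every other line, 683 genes were counted. Of these, 637 could be placed, 68 lay on chromosome 12 and 30 within chr12:57489191-71031220 (GRCh37). Only genes starting at 57 to 71 Mb of chromosome 12 or 15 to 18 Mb of chromosome 2 were listed, so the interval gives no outer limits. Genes in it that missed the limits were not counted. CDK4 was at 5676 and 5817 CPM in NB1691 control against means of 224, 258 and 267 CPM in the NB1643, CHLA15 and CHLA20 controls. MDM2, the ubiquitin ligase of p53 (chr12:69201957-69239324), was at 6903 and 7026 CPM against 62.7, 77.7 and 64.3 CPM, and OS9, of the endoplasmic reticulum, at 14060 and 14370 CPM against 118, 152 and 129.7 CPM. On chromosome 2, DDX1 (10400 and 10720 CPM against 289.7, 207 and 232 CPM) and NBAS met the same limits. MYCN did not, because its control mean in NB1643 was 3175 CPM. The labels give no copy number. Under palbociclib 11 of the 30 genes rose, 8 fell and 11 were not called (median log2 fold change 0.05). MDM2 fell from 6903 and 7026 to 4622 and 4942 CPM (log2 fold change -0.54, SE 0.0618, adjusted p = 1.62e-06), HMGA2, a chromatin protein, from 349 and 344 to 207 and 204 CPM (-0.75), and PTPRB, a receptor phosphatase, rose from 889.6 and 922 to 1484 and 1478 CPM (0.71). These genes were chosen by their level in control libraries after the values were seen.

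In the MYC and MAX network, 6 of 12 genes rose, 2 fell and 4 were not called. MYCN, the neuroblastoma oncogene, rose slightly from 86.1 and 86.5 to 106 and 102 CPM (log2 fold change 0.27, SE 0.0537, adjusted p = 7.03e-04), whereas in NB1643 it fell (-0.53), and the difference between the lines was 0.80 (adjusted p = 3.66e-07). MYC had 72.8 and 66.2 CPM in control and 64.0 and 59.3 CPM in palbociclib libraries and was not called (-0.17). DESeq2 called it lower (adjusted p = 0.036). So did edgeR with no filter beyond 1 count, with a replicate block or with only the compared groups. In NB1643 MYC was at 0.6003 and 0.0959 CPM in control and 0.0767 and 0.0615 CPM in palbociclib libraries. MYCL rose at a low level (0.69). The shared partner MAX (0.33) and the MYC antagonists MXD1 (0.46), MXD4 (0.48) and MXI1 (0.23) rose, and the antagonist MXD3, whose gene is transcribed in S phase, fell from 18.5 and 17.7 to 4.29 and 3.59 CPM (log2 fold change -2.19, SE 0.0982, adjusted p = 2.86e-12). MLX fell by 0.19, while MGA (-0.26), MLXIP (-0.09) and MNT (0.15) were not called. Without control 2 or palbociclib 1, MXI1 missed the threshold (adjusted p from 0.109 to 0.198). When any 1 of the libraries was left out, MLX missed the threshold (adjusted p from 0.0701 to 0.207).

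The 10 largest rises among genes at 1 CPM or more were PVALB, MAB21L3, FOLR3, KRTAP2-3, NPPB, CSF2RB, KRT34, KRT23, RIMS1 and LRRC32. Most were low in control. CSF2RB, the shared receptor subunit for IL-3, IL-5 and GM-CSF (chr22:37309670-37336481), had 26.4 and 26.2 CPM in control and 166 and 163 CPM in palbociclib libraries (log2 fold change 2.64, SE 0.0762, adjusted p = 6.31e-14). LRRC32, which binds latent TGF-beta at the cell surface (chr11:76368568-76381791), had 10.9 and 11.5 CPM in control and 60.2 and 58.2 CPM in palbociclib libraries (log2 fold change 2.41, SE 0.0978, adjusted p = 6.65e-13). NPPB, the gene of brain natriuretic peptide (chr1:11917521-11919002), rose from 3.79 and 3.95 to 28.2 and 22.8 CPM (2.72). KRTAP2-3 rose from 4.08 and 4.26 to 30.2 and 29.4 CPM (2.84), and the keratins KRT34 from 3.73 and 3.04 to 22.2 and 18.8 CPM (2.61) and KRT23 from 0.864 and 0.952 to 5.44 and 5.56 CPM (2.59). These families have close paralogs, so their counts are uncertain. RIMS1, a protein of the presynaptic active zone, rose from 2.00 and 2.54 to 12.8 and 12.1 CPM (2.44). PVALB, a calcium-binding protein, had 0.352 and 0.238 CPM in control and 3.42 and 2.99 CPM in palbociclib libraries (log2 fold change 3.45, SE 0.331, adjusted p = 1.44e-06), MAB21L3 rose by 2.94 and the folate receptor gene FOLR3 from 0.320 and 0.384 to 3.25 and 1.95 CPM (2.88). In all 10 genes both treated libraries lay above both controls, as the rule for naming them required.

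Most genes of neurons and of catecholamine storage rose. Of the 30 neuronal genes tested, 20 rose, 4 fell and 6 were not called, with a median log2 fold change of 0.55. STMN4, a microtubule regulator of neurons, rose from 2.27 and 2.41 to 9.52 and 8.65 CPM (log2 fold change 1.96, SE 0.105, adjusted p = 4.6e-11), and DCX, doublecortin, from 19.3 and 24.0 to 40.2 and 41.6 CPM (0.91). The neurofilament genes NEFM and NEFL went the other way: NEFM had 53.8 and 54.6 CPM in control and 26.4 and 23.1 CPM in palbociclib libraries (log2 fold change -1.13, SE 0.0658, adjusted p = 1.61e-10), NEFL fell by 0.48, and the receptor NGFR fell from 145 and 149 to 89.1 and 88.8 CPM (-0.73). Of the 21 catecholamine and granule genes tested, 15 rose, 1 fell and 5 were not called, with a median log2 fold change of 0.50. CHGB, a granin of secretory granules, had 140.0 and 169.6 CPM in control and 417 and 426 CPM in palbociclib libraries (log2 fold change 1.45, SE 0.0662, adjusted p = 3.99e-12), and SLC18A2, the vesicular monoamine transporter, rose from 4.98 and 5.04 to 9.78 and 10.5 CPM (1.02). TH rose from 0.752 and 0.688 to 1.99 and 1.06 CPM (log2 fold change 1.12, SE 0.228, adjusted p = 8.08e-04). PCSK1, a prohormone convertase, fell (-0.90). Without palbociclib 1, TH missed the threshold (adjusted p = 0.0879) and PCSK1 missed the threshold (adjusted p = 0.104).

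Most transcription factors of the adrenergic state were not called. Of the 15 adrenergic transcription factor genes tested, 5 rose, 1 fell and 9 were not called, with a median log2 fold change of 0.09. The rises were small, with TFAP2B (0.60), GATA2 (0.58) and PHOX2A (0.41) the largest, and INSM1 fell (-0.49). Without palbociclib 1, TFAP2B missed the threshold (adjusted p = 0.272). Without control 2 or palbociclib 1, INSM1 missed the threshold (adjusted p from 0.0596 to 0.118). The count of rises was 3 without palbociclib 1 and 3 without control 1. Of the 25 mesenchymal state genes tested, 6 rose, 7 fell and 12 were not called, with a median log2 fold change of -0.09. THBS1, thrombospondin, rose from 494 and 475 to 1289 and 1261 CPM (log2 fold change 1.40, SE 0.0777, adjusted p = 7.98e-11), CTGF, a target of YAP, from 2120 and 2038 to 3443 and 3706 CPM (0.78) and COL1A1 by 0.40, a rise that DESeq2 did not call (adjusted p = 0.288). FOSL1, an AP-1 subunit, fell from 39.6 and 40.4 to 17.5 and 16.8 CPM (-1.22), and MEOX1 (-0.88) and ID1 (-0.85) fell as well. Among fibroblast and vessel markers 4 of 10 rose and 1 fell, with PDGFRA (0.74), COL1A1 and COL3A1 (0.39) higher and COL1A2 (-0.60) lower, and 2 rose without palbociclib 1. Without palbociclib 1, PDGFRA missed the threshold (adjusted p = 0.0630). Without control 1, control 2 or palbociclib 2, COL1A2 missed the threshold (adjusted p from 0.0773 to 0.233). Of 6 Schwann and glial markers tested 2 rose, among them S100B (1.0), and 1 rose when any 1 of the NB1691 libraries was left out. The summed levels of the 8 listed markers were 16.3 and 16 CPM in control and 21.4 and 20.6 CPM in palbociclib.

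Most lysosomal genes rose, by small amounts. Of the 40 lysosome genes tested, 26 rose, 3 fell and 11 were not called, with a median log2 fold change of 0.25. GPNMB, a lysosomal membrane protein, rose from 10.4 and 11.97 to 36.2 and 36.5 CPM (log2 fold change 1.70, SE 0.132, adjusted p = 1.01e-08), GAA, acid alpha-glucosidase, from 225 and 224 to 371 and 368 CPM (0.72) and CTSF, cathepsin F, from 78.2 and 81.0 to 128 and 123 CPM (0.66). The lysosomal regulator TFEB (-0.31), FNIP2 (-0.26) and GUSB (-0.55) fell. Without any 1 of the 4 libraries, TFEB missed the threshold (adjusted p from 0.0891 to 0.182). With calls restricted to changes above 0.5 on the log2 scale, 7 lysosomal genes were left as higher.

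Genes of the integrated stress response, which ATF4 drives when amino acids run short or protein folding fails, rose more often than they fell. Of the 24 stress response genes tested, 13 rose, 1 fell and 10 were not called, with a median log2 fold change of 0.28. NUPR1 rose from 8.66 and 8.66 to 23.9 and 24.96 CPM (1.5), the secreted glycoprotein STC2 from 343 and 357 to 829 and 786 CPM (log2 fold change 1.21, SE 0.0976, adjusted p = 1.81e-08) and VLDLR from 34.0 and 36.5 to 74.0 and 70.6 CPM (1.03), while PHGDH, of serine synthesis, fell (-0.37). On the same list NB1643 had 3 higher and 10 lower (median -0.03), and at 300 nM CHLA15 and CHLA20 each had 0 higher and 23 lower (medians -1.24 and -1.72). Between the NB lines, 12 of the 24 genes differed with NB1691 higher and 1 with NB1691 lower.

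Lists of ribosome production, glycolysis and cholesterol synthesis held more falls than rises. Of the 30 ribosome biogenesis genes tested, 1 rose, 16 fell and 13 were not called, with a median log2 fold change of -0.18. They were led by UTP20 (-0.53), FBL (-0.50) and NCL (-0.36), POLR1E rose by 0.16, and the count of falls was 6 without palbociclib 2 and 10 without control 2. Of the 21 glycolytic genes tested, 1 rose, 10 fell and 10 were not called, with a median log2 fold change of -0.14. The glycolytic falls were led by PKM (-0.53), PFKP (-0.49) and LDHA (-0.38) and the rise was PFKM (0.16), with a count of falls of 6 without palbociclib 1, 6 without palbociclib 2 and 6 without control 2. Without control 1, control 2 or palbociclib 2, POLR1E missed the threshold (adjusted p from 0.122 to 0.290). When any 1 of the libraries was left out, PFKM missed the threshold (adjusted p from 0.0520 to 0.0800). Of the 24 cholesterol synthesis genes tested, 1 rose, 9 fell and 14 were not called, with a median log2 fold change of -0.14. ACAT2 (-0.77) and EBP (-0.46), an isomerase of sterol synthesis, fell and TM7SF2 rose (0.63), and the count of falls was 5 without palbociclib 2 and 5 without control 2. Over all settings the falls ranged from 2 to 25 for ribosome biogenesis, 1 to 14 for glycolysis and 2 to 15 for cholesterol synthesis, lowest with the limit of 0.5 on the log2 scale.

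**Figure D4:**
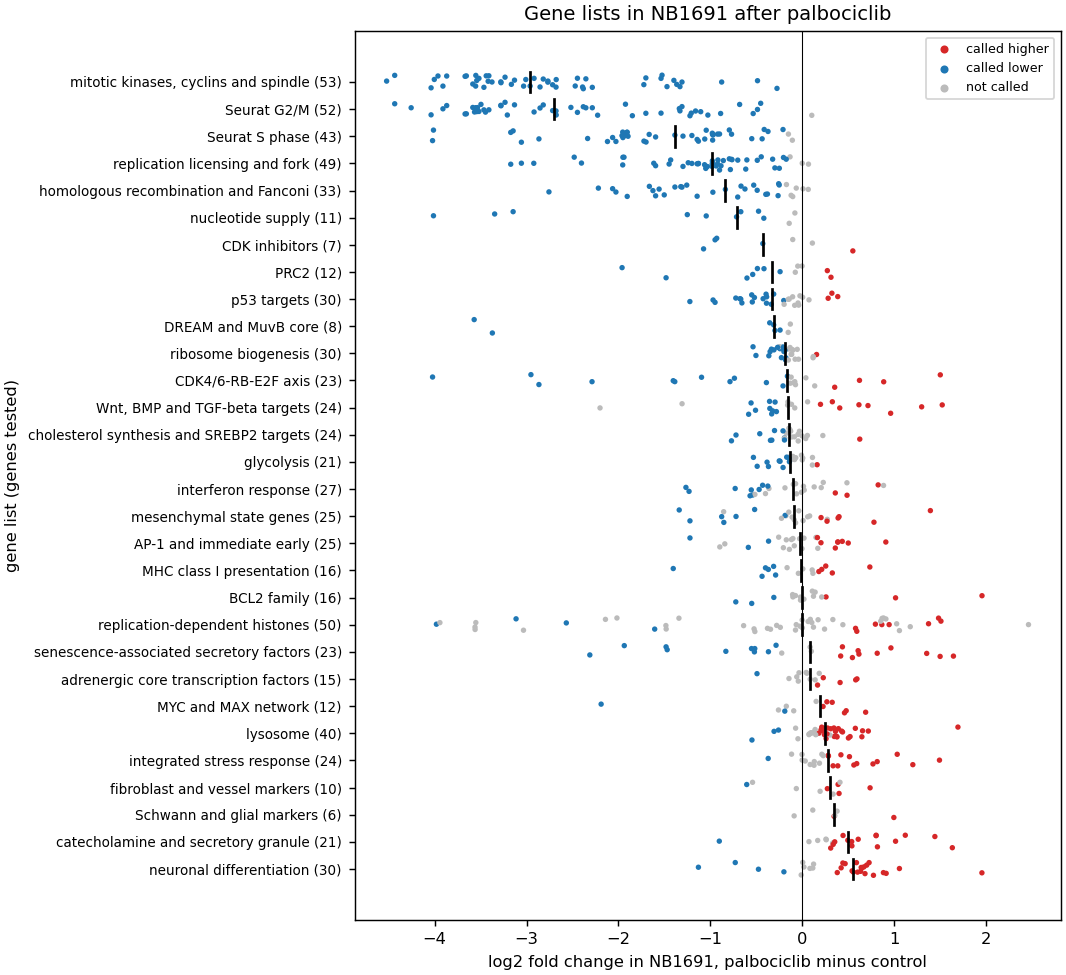
Each point is a gene of the list named at the left (number tested in brackets), at its log2 fold change in NB1691, palbociclib minus control, red where called higher, blue where called lower and grey where not called, with a black bar at the list's median. The mitotic and replication lists lie to the left of 0, the lysosome, stress response, granule and neuronal lists mostly to the right.

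Secreted and immune genes moved in both directions. Of the 23 senescence-associated secretory and marker genes tested, 10 rose, 10 fell and 3 were not called, with a median log2 fold change of 0.09. The cytokine IL1B rose from 10.4 and 11.0 to 35.6 and 31.3 CPM (log2 fold change 1.65, SE 0.102, adjusted p = 3.25e-08), and the insulin-like growth factor binding proteins IGFBP5 from 154 and 157 to 449.8 and 430.3 CPM (1.5) and IGFBP3 from 177 and 178 to 459.7 and 450.2 CPM (1.36). LMNB1, lamin B1, fell from 109.7 and 117 to 22.2 and 23.6 CPM (log2 fold change -2.31, SE 0.0542, adjusted p = 2.02e-16), and so did the chemokines CXCL1, from 36.9 and 36.0 to 9.80 and 9.24 CPM (-1.94), and CXCL2 (-1.48), the latter not called by DESeq2 (adjusted p = 0.881). Of the 27 interferon response genes tested, 3 rose, 9 fell and 15 were not called, with a median log2 fold change of -0.10. The signal transducer gene STAT2 rose from 131 and 121 to 173 and 182 CPM (log2 fold change 0.49, SE 0.0616, adjusted p = 5.56e-06) and the RNA sensor gene DDX58 by 0.36, while USP18 (-1.26), OAS3 (-1.23) and MX1 (-0.73) fell. Without control 1, control 2 or palbociclib 2, DDX58 missed the threshold (adjusted p from 0.0545 to 0.127). Of 16 genes of MHC class I presentation 5 rose and 6 fell, with HLA-E (0.74), HLA-B (0.33) and TAPBP (0.26) the largest rises and PSMB9 (-1.40), ERAP2 (-0.44) and NLRC5 (-0.40) the largest falls. The rises numbered 3 without palbociclib 1, 3 without control 1 and 3 without control 2, and HLA counts are uncertain because reads of these genes resemble each other. Without control 1, NLRC5 missed the threshold (adjusted p = 0.0532).

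Of the 25 AP-1 and immediate early genes tested, 8 rose, 3 fell and 14 were not called, with a median log2 fold change of -0.03. NR4A3 (0.91), IER3 (0.50) and the phosphatase gene DUSP4 (0.44) rose and FOSL1 (-1.22), DUSP5 (-0.59) and NR4A1 (-0.37) fell, and without any 1 of the 4 libraries 4 genes were called higher. The balance depended on the setting, with 5 higher and 5 lower under library totals and 9 and 9 with only the compared groups in the fit. Without control 1 or palbociclib 2, NR4A1 missed the threshold (adjusted p from 0.0674 to 0.0899). Of the 24 Wnt, BMP and TGF-beta genes tested, 8 rose, 9 fell and 7 were not called, with a median log2 fold change of -0.16. DKK1, a Wnt antagonist, rose from 17.9 and 17.9 to 53.5 and 49.7 CPM (log2 fold change 1.52, SE 0.0742, adjusted p = 1e-11), BMP4 from 6.77 and 7.42 to 17.7 and 17.3 CPM (1.30) and TGFB2 from 180.1 and 180.1 to 347 and 356 CPM (0.96), whereas LGR5 (-0.58), TGFBI (-0.56) and LEF1 (-0.51) fell. The rises numbered 5 without control 1. Without control 1, LEF1 missed the threshold (adjusted p = 0.0518).

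Among chromatin genes, PRC2 subunits mostly fell and most histone genes were not called. Of the 12 PRC2 complex genes tested, 2 rose, 7 fell and 3 were not called, with a median log2 fold change of -0.33. PHF19 fell from 28.4 and 28.4 to 7.86 and 6.67 CPM (log2 fold change -1.96, SE 0.0857, adjusted p = 1.93e-12) and EZH2, the H3K27 methyltransferase, from 32.9 and 33.4 to 12.5 and 11.2 CPM (log2 fold change -1.48, SE 0.0610, adjusted p = 8.01e-13), and AEBP2 fell too (-0.60). The accessory genes JARID2 (0.31) and EPOP (0.27) rose. Without any 1 of the 4 libraries, EPOP missed the threshold (adjusted p from 0.109 to 0.181). Of the 50 replication-dependent histone genes tested, 8 rose, 4 fell and 38 were not called, with a median log2 fold change of 0.00. HIST1H2AC rose from 16.4 and 15.7 to 42.3 and 40.8 CPM (log2 fold change 1.38, SE 0.100, adjusted p = 3.95e-09), HIST1H4H from 2.62 and 2.21 to 6.40 and 7.35 CPM (1.51) and HIST1H2BC by 1.49, and HIST1H2BH fell from 4.64 and 4.11 to 0.746 and 0.723 CPM (-2.57). These genes are near-identical copies, and their transcripts mostly lack the poly(A) tail, so counts are uncertain.

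The same dose and time in NB1643 gave 4487 rises (20.3%) and 4354 falls (19.7%), together 39.9% of genes tested. Of the genes that fell in NB1691, 1888 also fell in NB1643, which is 55.2% of the NB1691 falls and 43.4% of the NB1643 falls, and 238 rose there. Of the NB1691 rises 1766 were shared (45.9% and 39.4%) and 392 fell in NB1643. The lines have separate controls, and the NB1643 controls differed from each other more than the NB1691 controls did. No NB1643 library was left out in turn, so the weight of its single libraries in the differences was not tested. The difference of the responses passed the test in 4875 genes (22%), 2653 with the NB1691 value above and 2222 below that of NB1643. In the replication list 29 of 49 genes differed with NB1691 above and 3 with NB1691 below, and the list medians were -0.98 in NB1691 and -1.33 in NB1643. In the mitotic list 20 differed one way and 14 the other, with medians of -2.96 and -2.87. Among axis genes, E2F7 fell by 2.29 in NB1691 and 5.14 in NB1643 (difference 2.85, adjusted p = 8.87e-08), E2F1 by 1.40 and 2.41 (1.0, 2.19e-07), CDK2 by 0.74 and 1.91 (1.18, 1.89e-08) and E2F8 by 4.02 and 6.55 (2.53, 1.61e-06). In total 11 of 23 axis genes differed with NB1691 above and 0 with NB1691 below.

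The 10 largest differences between the lines at a mean of 1 CPM over both rested on counts at the floor of 1 line, so no folds are given. HAPLN1, FLG, P3H2, FAT2 and CXCL5 had 0 counts in both NB1643 controls and 2 to 15 counts in the NB1643 palbociclib libraries, against 118 to 133915 counts in the NB1691 libraries. OSR2, CSF2RB and NFE2 had 0 counts in both treated NB1643 libraries and 0 to 12 in its controls. HBB and ZIC5 had counts in NB1691 only in palbociclib 1, and in NB1643 ZIC5 was well above the floor (587 to 1348 counts). The origin of these few counts was not tested.

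Among genes with at least 1 CPM in each NB line, a limit added after these values were seen, the difference passed in 4238 of 12756 genes. The largest with NB1691 lower included FAM20C, a kinase of the secretory pathway, which fell from 122 and 124 to 24.8 and 24.1 CPM in NB1691 (log2 fold change -2.33, SE 0.0702, adjusted p = 6.39e-15) and went from 30.7 and 27.3 to 38.8 and 36.1 CPM in NB1643 (difference -2.70, adjusted p = 3.57e-12). KLHL14 fell from 6.10 and 6.20 to 0.597 and 0.462 CPM in NB1691 and went from 3.06 and 2.95 to 1.86 and 1.80 CPM in NB1643 (difference -2.81). CNGB1 rose in both lines, by 1.02 and 4.13, and CYB561 and SLC35D2 rose in NB1643 by 2.59 and 2.07 with 0.17 and 0.15 in NB1691, which were not called. In the other direction ARHGEF26 had 14.5 and 14.2 CPM in control and 15.1 and 15.5 CPM in palbociclib libraries of NB1691 and fell from 6.10 and 5.50 to 0.506 and 0.369 CPM in NB1643 (difference 3.79). PHLDB2, FLRT2, SMCO4 and EDNRB likewise fell in NB1643, by 3.04 to 3.42 on the log2 scale, with PHLDB2 (0.21), FLRT2 (0.29), SMCO4 (0.04) and EDNRB (0.13) in NB1691, of which PHLDB2 was called. Without control 1 or palbociclib 1, PHLDB2 missed the threshold (adjusted p from 0.0514 to 0.0865).

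**Figure D5:**
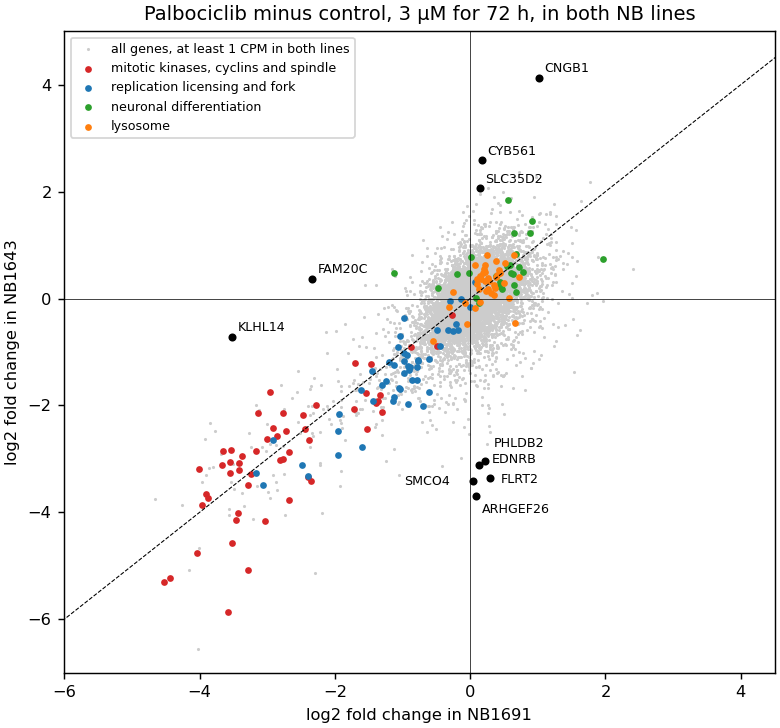
Log2 fold change in NB1691 (horizontal) and NB1643 (vertical), palbociclib minus control at 3 µM for 72 h, of genes with at least 1 CPM in both lines; the dashed line marks equal values. Mitotic genes (red) lie near the line in the lower left, most replication genes (blue) below it, and the 10 labelled genes, such as FAM20C and ARHGEF26, far from it.

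CHLA15 and CHLA20 received a lower dose, 300 nM, and are set beside NB1691 without a test. They had 3140 and 3026 rises and 3458 and 3518 falls (29.8% and 29.6% of genes). The 10 largest NB1691 falls had smaller estimates there, between -1.12, for E2F8 in CHLA20, and 0.48, for APOBEC3B in CHLA15. E2F8 fell by 0.60 in CHLA15, and HMMR had -0.49 and -0.75. KIF20A had log2 fold changes of -0.52 and -0.60, MKI67 -0.37 and -0.58, and RRM2 -0.10 and -0.58. The mitotic list had 45 and 51 of 53 genes lower, with medians of -0.34 and -0.48, against -2.96 in NB1691. Of the NB1691 falls, 1103 also fell in CHLA15 (32.2% of the NB1691 and 31.9% of the CHLA15 falls) and 1406 in CHLA20 (41.1% and 40%), while 293 and 198 rose there. Of the NB1691 rises, 1276 were shared with CHLA15 (33.2% and 40.6%) and 1330 with CHLA20 (34.6% and 44%), while 538 and 506 fell there. The neuronal list had medians of 0.55 in NB1691, 0.47 in NB1643, 0.40 in CHLA15 and 0.54 in CHLA20. Single members differed: between NB1691 and NB1643 the difference passed in 12 of the 30 genes, 4 with NB1691 above and 8 below. NEFM, which fell in NB1691, rose by 0.48, 0.81 and 0.69 in NB1643, CHLA15 and CHLA20, and NEFL by 0.20, 0.33 and 0.25.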

How the data were processed

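RNA-seq libraries of 4 palbociclib-treated or untreated neuroblastoma lines were used, 16 in all. Per the labels and the study's methods, the authors aligned paired reads to GRCh37 and counted them per gene with HTSeq, and the submitters' processing notes name STAR 2.5.3a. The methods name a mouse annotation while the symbols are human, and whether counting used strand is not given in the sources used here. The authors deposited whole-number counts per gene without normalization. The labels name cell lines as source although their extraction text speaks of xenograft tissues. BE2C samples were not used here. Of the NB1691 read pairs 82.6% to 84% fell on genes, and the counter's summary lines were left out.

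After filterByExpr, genes entered edgeR 4.0.16 under R 4.3.3 (TMM factors, quasi-likelihood F test, 8 groups in 1 model, Benjamini-Hochberg adjusted p under 0.05), together with the difference of NB1691 and NB1643 responses. Counts of 45457371 to 93011010 per library and 2 libraries per group set the precision. The model was first tested on simulated data. Members and gene lists were chosen with earlier results of these data known. Named genes were the 10 largest rises and falls among called genes with both treated libraries on the same side of both controls. All members of the axis, inhibitor and MYC lists were named. So were up to 3 called rises and falls of each other list at a mean of 1 CPM or more. The 5 largest differences between the NB lines in each direction were taken from genes that passed the test of the difference. Fold changes against a group at or under 3 counts are not given. Alternatives were DESeq2 1.42.0, limma 3.58.1 with voom, other scalings, filters, sample sets, a replicate block and leaving out each library. The Seurat lists came from Seurat 5.3.0, and promoters from RefSeq (GRCh38.p14). Some named genes are not reported here.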

Additional observations from a re-analysis of the deposited data

Results flagged for a closer look

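The response to palbociclib differed between NB1691 and NB1643 in 4875 of 22133 genes, by the test of the difference itself in edgeR (adjusted p under 0.05). Of the 186 genes chosen for naming, 101 passed it. Those named as the largest differences between the lines had to pass it, so this count cannot be set against the share over all genes. In 51 of these 101 the gene was called in the same direction in both lines, so that the lines differed in size, and in 36 the estimates had opposite signs.

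Values in brackets are the log2 difference, NB1691 minus NB1643. The NB1691 value was above that of NB1643 by the most in ARHGEF26 (3.79), FLRT2 (3.65), SMCO4 (3.46), PHLDB2 (3.25), EDNRB (3.25), E2F7 (2.85), CCND2 (2.67), E2F8 (2.53), MYC (2.26), PDGFRA (1.93), HIST1H2BC (1.93) and DKK1 (1.92). It was also above in THBS1 (1.89), LRRC32 (1.84), MXD3 (1.83), TGFB2 (1.38), STC2 (1.22), HIST1H4H (1.21), IGFBP3 (1.21), STMN4 (1.21), CDK2 (1.18), CTSF (1.12), PCSK1 (1.11) and MYCL (1.05). Further genes with the NB1691 value above were E2F1 (1.0), FAM111B (0.91), TH (0.91), VLDLR (0.89), MKI67 (0.80), MYCN (0.80), E2F2 (0.79), KIF20A (0.78), CDKN2A (0.74), ACAT2 (0.73), IGFBP5 (0.73) and NLRC5 (0.73). Smaller positive differences were found in HMMR (0.71), HIST1H2AC (0.70), CDKN1B (0.65), RRM2 (0.65), CHGB (0.59), E2F5 (0.56), CDKN1C (0.56), TK1 (0.54), BCL2 (0.50), FBXO5 (0.49), MYBL2 (0.47) and RBL1 (0.46). Others above were COL3A1 (0.40), PHGDH (0.39), TFDP1 (0.38), GADD45A (0.36), TYMS (0.36), CDK6 (0.33), LDHA (0.33), GAA (0.32), CDKN2C (0.30), FOXM1 (0.27) and GUSB (0.25). The NB1691 value was below that of NB1643 by the most in APOBEC3B (-4.44), CNGB1 (-3.11), KLHL14 (-2.81), FAM20C (-2.70), CYB561 (-2.42), SLC35D2 (-1.92), NEFM (-1.61), MX1 (-1.20), TP53INP1 (-1.04), IQGAP3 (-0.92), LMNB1 (-0.82) and HIST1H2BH (-0.82). It was also below in CDKN1A (-0.77), MXD4 (-0.72), RAD54L (-0.69), NEFL (-0.68), FAS (-0.60), CDKN2D (-0.55), DCX (-0.53), NR4A1 (-0.43), PHF19 (-0.42), AEBP2 (-0.41), TM7SF2 (-0.40) and UTP20 (-0.39). The remaining negative differences were FNIP2 (-0.38), MXD1 (-0.38), PKM (-0.36), PFKP (-0.26) and BMF (-0.25).

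For MYC, CCND2, APOBEC3B, HIST1H2BC, MYCL and MX1 the difference rests on very low NB1643 levels. In the NB1643 libraries APOBEC3B was at 0.0959 to 0.246 CPM and HIST1H2BC at 0.169 to 0.249 CPM. MYCL was at 0.307 to 0.491 CPM there and MX1 at 0.409 to 0.690 CPM. MYC was at 0.6003 CPM in NB1643 control 1, the library with 980 HBB counts, and at 0.0959 CPM or less in the other NB1643 libraries, and CCND2 was at 0.0615 to 0.164 CPM.

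For 12 genes a group of 1 line was at or under 3 counts in both libraries, and no difference is given. Their adjusted p-values were 0.0450 for CSF2RB, 0.00718 for CTGF, 0.0354 for COL1A2, 0.0260 for HBB, 0.00616 for ZIC5, 0.00657 for OSR2, 0.0324 for NFE2, 5.85e-05 for HAPLN1, 0.00544 for FLG, 0.00579 for P3H2, 0.00908 for FAT2 and 0.0141 for CXCL5.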

How the results depend on the processing

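NB1691 calls numbered 6733 with DESeq2 to 7734 with limma-voom over the tests, 7431 with upper-quartile factors, 7691 with library totals and 10320, 5217 of them lower, with only the compared groups in the fit. With the added limit of an absolute log2 fold change above 0.5, 3033 remained past the threshold, 1744 higher and 1289 lower, and the line difference had 2566, 1557 and 1009. Leaving out 1 NB1691 library gave 4934 to 5252 calls, 2515 to 2942 higher and 2235 to 2531 lower, and 3556 to 3814 differences between the lines, 1924 to 2196 positive and 1502 to 1700 negative. These fits hold fewer samples. At 1 CPM in each NB line 4238 differences were called. Of 2598 values of 186 named genes under 14 alternatives, 135 lost and 31 gained the call. Gains included MYC, lower in the settings given above, and MGA, lower with library totals, the replicate block and other settings. CDK4, E2F3, TFDP1 and CDKN2A were called lower with library totals and with only the compared groups. No called gene changed sign, and 5 values of genes that were not called did: RBL2 (-0.043) and SMCO4 (-0.045) with library totals, and 3 genes when 1 library was left out, with ranges of -0.30 to 0.025 for E2F5 (above 0 without palbociclib 2), -0.018 to 0.094 for SMCO4 and -0.096 to 0.32 for EDNRB (both below 0 without palbociclib 1). The cause was not tested. HBB and ZIC5 gave no value without palbociclib 1.

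Replicate numbers are shared between groups, with 2 pairs a line. Same-numbered libraries deviated with correlations across genes of 0.0147 in NB1691, -0.0583 in NB1643, 0.134 in CHLA15 and 0.121 in CHLA20, and the labels tie the numbers to no shared culture or day, so they were taken as numbers only. With the replicate block 7450 genes were called in NB1691 and 5047 between the lines.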
